A study of Mus musculus with 2 samples.

Results

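Among cells of LIF-grown mouse primary neurospheres, 150 cells with the highest combined share of 4 integrated stress response transcripts, Chac1, Trib3, Ddit3 and Asns, were compared with the 2118 cells that held 0 molecules of all 4. The cells came from 3309 that passed the filters (at least 500 detected genes, at most 10% mitochondrial molecules and at least 1500 molecules) out of 4000 barcodes. The neurospheres, floating colonies started from cells lining the lateral ventricles of CD1 embryos, were cultured without serum in 10 ng/mL leukemia inhibitory factor (LIF), and were profiled by Drop-seq, which marks each captured transcript with a cell barcode and a unique molecular identifier (UMI). The labels list 2 samples, pNSCs1 and pNSCs2, of 1 group with the same genotype and culture, and no treatment was contrasted. The protocol also names an additive, EFH, that it does not define. No column ties a barcode to a sample, so the table stood as 1 sample, cell barcodes shared between the libraries could not be counted, and no test could be made. The comparison cells were defined by the same 4 transcripts as the members, and other genes of both groups did not enter the choice. The series text speaks of nuclei and the labels of dissociated cells, and which was loaded was not settled here.

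The integrated stress response starts when any of 4 kinases, PERK, GCN2, PKR and HRI, phosphorylates the translation factor eIF2, which lowers protein synthesis in general while translation of the transcription factor ATF4 increases. ATF4 switches on genes for amino acid synthesis, uptake and tRNA charging, and together with CHOP, the product of Ddit3, genes that feed back on translation or promote cell death. Proliferating cells use the same genes to match amino acid supply to growth. Chac1 encodes an enzyme that degrades glutathione, Trib3 a pseudokinase that restrains AKT and ATF4, and Asns asparagine synthetase.

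These 4 transcripts chose the cells and are given only as a description. A member held 2 to 17 of their UMIs, with a median of 5, which made 8.44 to 34.3 of every 10000 UMIs of the cell, with a median of 11.7. Asns supplied most of them, with 532 UMIs in 144 of the 150 members. Ddit3 had 140 UMIs in 64 members, Chac1 106 UMIs in 71 members and Trib3 53 UMIs in 34 members. Of the members, 45 held 1 of the genes, 58 held 2, 36 held 3 and 11 held all 4. The choice rested on few molecules in many cells, since 17 members were chosen on 2 UMIs. The edge was not a gap: the last members inside it had 8.45, 8.45 and 8.44 per 10000 UMIs, and the first cells outside it had 8.41, 8.40 and 8.38.

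Depth was similar in both groups. The members held 654174 UMIs, with a median of 3726.5 per cell (1505 to 13955) and 1909.5 detected genes. The cells with 0 UMIs held 9620151, with a median of 3881.5 (1501 to 22311) and 2000.5 genes. Levels below are UMIs per 1000000 UMIs (CPM) of the summed cells, after the 4 genes were taken out of the totals, and 1 UMI among all members is 1.53 CPM. Each ratio divides the level in members by the level in cells with 0 UMIs, and its 95% interval covers counting error only. Of 8617 genes with at least 10 CPM over all cells that passed the filters, 63 (0.731%) had the whole interval above 1.5, called above the threshold here, and 38 (0.441%) had it below the inverse of 1.5. The median ratio over all these genes was 0.967, and the 5th and 95th percentiles were 0.545 and 1.48.

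**Figure D1:**
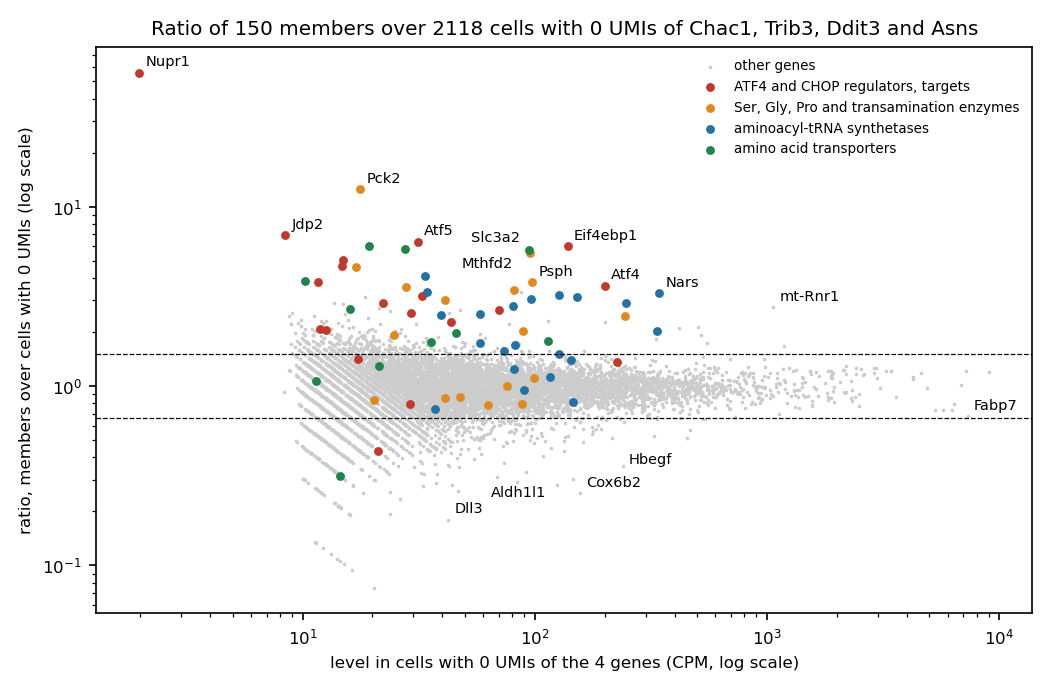
Ratio of each gene's level in the 150 members over its level in the 2118 cells with 0 UMIs (vertical, log scale), against its level in the cells with 0 UMIs in CPM (horizontal, log scale). Each point is 1 gene, colours mark 4 lists, dashed lines stand at 1.5 and its inverse, and genes with 0 UMIs in members are not drawn. Nupr1 stands highest at 55.8, and 38 of the 63 genes above the threshold are coloured.

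Most genes above the threshold belonged to lists of ATF4 and amino acid genes, which were chosen with earlier results of these data known. Whether their transcripts depend on ATF4 here was not measured. Of the 63 genes above the threshold, 38 belonged to 4 lists (ATF4 and CHOP regulators and targets, amino acid enzymes, tRNA synthetases, amino acid transporters), which together had 68 tested genes. Of the 38, Nupr1 and Jdp2 reached the 10 CPM minimum only through the members, since without them they stood at 8.0 CPM and 9.54 CPM over the cells that passed the filters, so their place in these counts is not independent of their being high in members. With the minimum taken over non-members instead, a setting added after the data were seen, 61 genes were above the threshold. No gene of these 4 lists lay below the threshold, which is near the 0.441% of all tested genes that did. Of the 63 above it, a further 5 belonged to other lists and 20 to none.

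The largest ratio among tested genes belonged to Nupr1, a small stress-induced chromatin protein. It stood at 110 CPM in members and 1.98 CPM in cells with 0 UMIs, a ratio of 55.8 (33.3 to 98.0). Its 72 UMIs were spread over 43 members. With every cell thinned to 1500 UMIs, 17.3% of members (exact binomial interval 11.6 to 24.4) held a Nupr1 UMI, against 0.331% (0.133 to 0.680) of cells with 0 UMIs. Nupr1 was thus almost absent from cells without the 4 transcripts and remained undetected in most members at this depth. Its ratio lay between 13.8 and 69.1 when members or settings were changed.

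The ATF4 and CHOP list had 19 tested genes, of which 13 were above the threshold, none below, and the median ratio was 2.90. Summed over its 24 genes in the table, the list stood at 3109 CPM in members and 959 CPM in cells with 0 UMIs, a ratio of 3.24 (3.09 to 3.40). Atf4 itself, the central transcription factor, was at 725 CPM in members and 200.0 CPM in cells with 0 UMIs, a ratio of 3.63 (3.27 to 4.01), and it was found in 120 members. Its relative Atf5, which activates chaperone genes of the mitochondrial stress response, was at 201 CPM in members and 31.4 CPM in the other cells (ratio 6.39, 5.16 to 7.87). Cebpg, a dimer partner of ATF4, had a ratio of 2.64 (2.16 to 3.21). These regulators were all above the threshold.

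Other list genes above the threshold encode inhibitors, repressors and secreted proteins. Eif4ebp1, an inhibitor of the cap-binding factor eIF4E, was at 840.3 CPM in members and 139 CPM in cells with 0 UMIs, a ratio of 6.05 (5.47 to 6.69), and it had UMIs in 128 of the 150 members. Jdp2, a transcriptional repressor that dimerizes with JUN and ATF proteins, had a ratio of 6.91 (4.57 to 10.3) and, like Nupr1, met the minimum only through the members. Sesn2, which restrains mTORC1 when leucine is low, had a ratio of 2.27 (1.72 to 2.96). Secreted products with UMIs above the threshold were Gdf15, a circulating stress hormone, at 3.17 (2.40 to 4.13) and the glycoprotein hormone gene Stc2 at 3.81 (2.44 to 5.78). Vldlr, a lipoprotein and reelin receptor, stood at 2.90 (2.03 to 4.06).

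Not every target in the list lay past the threshold. Ddit4, another brake on mTORC1, was at 308 CPM in members and 226 CPM in cells with 0 UMIs, a ratio of 1.36 (1.17 to 1.57). Ppp1r15a, the stress-induced subunit that directs a phosphatase to eIF2, had a ratio of 2.07 (1.14 to 3.50), too wide to lie above 1.5. Cebpb reached 2.05 (1.16 to 3.42) and Gadd45a 1.41 (0.788 to 2.36). Tnfrsf10b, the death receptor that CHOP induces in human cells, stood at 0.435 (0.158 to 0.964) on few UMIs. Pde4dip, listed as a target, had a ratio of 4.67, but 1 member supplied 53.3% of its UMIs and the ratio without that cell was 2.21.

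Letters of a composite element that ATF4 dimers bind, TGATGNAA on either strand, were looked for in RefSeq promoter windows (250 bases before to 50 after each start, GRCm38.p6). The element occurred in 3.97% of all 32851 windows. Counted per gene, in any window, it occurred in 4.51% of 27025 RefSeq genes and in 2.39% of the 6894 tested genes that matched the table. Among the matched genes above the threshold it occurred in 23.1% (12 of 52). Of 31 matched genes below the threshold, 1 held it. Nupr1 and Jdp2, which met the 10 CPM minimum only through the members, are among the genes counted above the threshold. Within the 4 lists, 9 of 32 matched genes above the threshold held the element, namely Nupr1, Pck2, Jdp2, Herpud1, Iars, Gars, Tars, Vldlr and Yars. The 250 bases before the start are shown for the 3 of these with the largest ratios, 5′ to 3′ on the strand of the gene, with the matched letters in capitals. A match describes letters only, and binding was not measured.
Nupr1: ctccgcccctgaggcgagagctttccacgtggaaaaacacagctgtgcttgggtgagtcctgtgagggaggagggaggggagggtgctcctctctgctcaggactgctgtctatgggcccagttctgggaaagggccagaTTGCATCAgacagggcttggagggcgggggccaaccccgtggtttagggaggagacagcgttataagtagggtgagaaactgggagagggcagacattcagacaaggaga
Pck2: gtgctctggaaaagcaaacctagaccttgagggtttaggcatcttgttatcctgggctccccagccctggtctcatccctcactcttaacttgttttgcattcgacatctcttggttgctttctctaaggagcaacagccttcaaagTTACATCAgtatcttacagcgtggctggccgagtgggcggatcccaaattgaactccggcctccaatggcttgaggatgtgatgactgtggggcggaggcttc
Jdp2: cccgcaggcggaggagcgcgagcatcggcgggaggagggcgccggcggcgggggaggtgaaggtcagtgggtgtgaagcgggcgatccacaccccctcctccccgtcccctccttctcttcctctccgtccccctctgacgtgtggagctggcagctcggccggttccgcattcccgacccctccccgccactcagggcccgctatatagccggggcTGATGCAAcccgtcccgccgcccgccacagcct
The Nupr1 bases span chr7:126625471-126625720 on the minus strand, and the element, TTGCATCA, began 110 bases before the start. The Pck2 bases span chr14:55540016-55540265 on the plus strand, with TTACATCA beginning 103 bases before the start. Both are matches on the opposite strand. The Jdp2 bases span chr12:85599166-85599415 on the plus strand, with TGATGCAA 33 bases before the start, in 1 of 3 windows of the gene. By GENCODE M21 the gene spans are chr7:126623249-126630861 for Nupr1, chr14:55540266-55551242 for Pck2 and chr12:85599027-85639878 for Jdp2, so the Nupr1 and Jdp2 starts used by RefSeq lie inside longer annotated genes.

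Enzymes that make serine, glycine, proline and aspartate-family amino acids followed. The list had 17 tested genes, with 9 above the threshold, none below and a median ratio of 2.03. Its sum was 3072 CPM in members and 1186 CPM in cells with 0 UMIs, a ratio of 2.59 (2.47 to 2.72). The whole serine pathway was above the threshold, from Phgdh, its first enzyme, at 3.03 (2.35 to 3.85), through Psat1 at 2.44 (2.19 to 2.72), to Psph at 3.81 (3.29 to 4.39). Pck2, the mitochondrial enzyme that turns oxaloacetate into phosphoenolpyruvate, had the second largest ratio of all tested genes, at 220.4 CPM in members and 17.7 CPM in the other cells (12.5, 9.92 to 15.7). It had UMIs in 79 members.

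Mthfd2 and Shmt2, of mitochondrial folate metabolism, were above the threshold. Mthfd2, the mitochondrial methylenetetrahydrofolate dehydrogenase, was at 523 CPM in members and 95.3 CPM in cells with 0 UMIs, a ratio of 5.49 (4.84 to 6.22). Shmt2, the mitochondrial serine hydroxymethyltransferase, had a ratio of 3.42 (2.90 to 4.03). Shmt1, its cytosolic counterpart, had a ratio of 0.780 (0.529 to 1.11), and the intervals of Shmt2 and Shmt1 did not overlap. Mthfd1l, another mitochondrial folate enzyme, did not pass, at 1.92 (1.27 to 2.80). Aldh18a1, which starts proline synthesis, reached 4.58 (3.28 to 6.30), and the transaminase genes Bcat1 and Gpt2 stood at 3.56 (2.67 to 4.68) and 2.03 (1.66 to 2.46). Glutamine synthetase (Glul, 0.799, 0.580 to 1.07) and cystathionine beta-synthase (Cbs, 0.857, 0.537 to 1.31) did not lie above the threshold.

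Some genes of the 4 lists were too rare over all cells for the 10 CPM minimum, and are given apart. Most of their UMIs lay outside the members. There were 12 list genes under the minimum, of which 7 had the whole interval above 1.5. Over all genes with no CPM minimum, 120 of 17856 had it above 1.5, against 63 of 8617 with the minimum. Cth, which makes cysteine from cystathionine, stood at 78.1 CPM in members and 3.95 CPM in cells with 0 UMIs (19.8, 12.7 to 30.9). Of its 164 UMIs over all cells that passed the filters, 51 were in members. Slc7a3, a transporter of arginine and lysine, stood at 59.7 CPM in members and 1.56 CPM in cells with 0 UMIs (38.3, 20.6 to 74.8). At equal depth a Slc7a3 UMI was found in 8.0% of members (4.20 to 13.6) and 0.0472% of cells with 0 UMIs (0.00120 to 0.263). The others were Aldh1l2 at 8.77, the cystine transporter gene Slc7a11 at 7.91, Pycr1 at 5.66, Atf3 at 10.2 on 9 UMIs in members, and Fgf21 with 3 UMIs in members and 0 in cells with 0 UMIs of the 4 genes.

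Transcripts for tRNA charging had higher levels in members for most synthetases. Of 21 tested genes of the cytosolic synthetase list, 18 had a ratio above 1 (against 44.4% of all tested genes), 11 were above the threshold, none below, and the median ratio was 2.03. The sum was 5666 CPM in members and 2507 CPM in cells with 0 UMIs, a ratio of 2.26 (2.18 to 2.34). The asparaginyl enzyme Nars was at 1139 CPM in members and 345 CPM in the other cells (3.30, 3.05 to 3.58), the cysteinyl enzyme Cars had a ratio of 4.12 (3.23 to 5.22), and the isoleucyl, glycyl, leucyl and threonyl enzymes Iars, Gars, Lars and Tars lay between 3.07 and 3.36. Xpot, which exports tRNAs from the nucleus and was kept in this list, was at 2.49 (1.88 to 3.25).

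The other 10 genes of the list did not pass the threshold, and 7 of them had a ratio above 1. Wars, Vars, Farsb, Aars, Rars and Farsa lay between 1.24 and 1.74. The lysyl enzyme Kars stood at 1.12 (0.889 to 1.40). The histidyl enzyme Hars had a ratio of 0.818 (0.643 to 1.03), the aspartyl enzyme Dars 0.950 (0.712 to 1.25) and the glutaminyl enzyme Qars 0.740 (0.434 to 1.19), so those 3 had no higher level in members. Mars, at 2.78 (2.31 to 3.32), overlaps Ddit3 by 68 bases on the opposite strand. Whether the authors' counting used strand is not given in the sources used here, so its value is uncertain. The same doubt holds for each gene that overlaps another on the opposite strand. Such genes were 16 of the 63 above the threshold and 7 of the 38 below it. With overlaps on the same strand counted too, they were 18 and 9. Among those named, G0s2 lies in Lamb3 over 1057 bases and Slc6a9 overlaps Gm17114 over 33260 bases, both on opposite strands. Bcat1, Aldh1l1, Ifrd1, Ttyh1 and Arhgef2 overlap other genes on the opposite strand over longer stretches than G0s2 does. Sesn2 overlaps Gm12981 over 6089 bases on the same strand.

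Transporters that bring amino acids into the cell were higher as well. The list had 11 tested genes, 5 of them above the threshold, none below, with a median of 1.97. Its sum was 1407 CPM in members and 423 CPM in cells with 0 UMIs, a ratio of 3.33 (3.10 to 3.58). Both chains of the large neutral amino acid exchanger were among the 5. Slc7a5, the transporting chain, was at 116 CPM in members and 19.3 CPM in the other cells (6.02, 4.55 to 7.90), and Slc3a2, the heavy chain that it shares with the cystine exchanger, was at 543 CPM in members and 94.8 CPM in the other cells (5.73, 5.06 to 6.49). The arginine transporter gene Slc7a1 had a ratio of 5.83 (4.61 to 7.34), the glycine transporter gene Slc6a9 3.87 (2.41 to 6.01) and the glutamine carrier gene Slc1a5 2.68 (1.72 to 4.02). Slc38a2, at 1.78 (1.47 to 2.13), and Slc38a1, at 1.97 (1.47 to 2.58), carriers of small neutral amino acids, just missed the threshold.

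**Figure D2:**
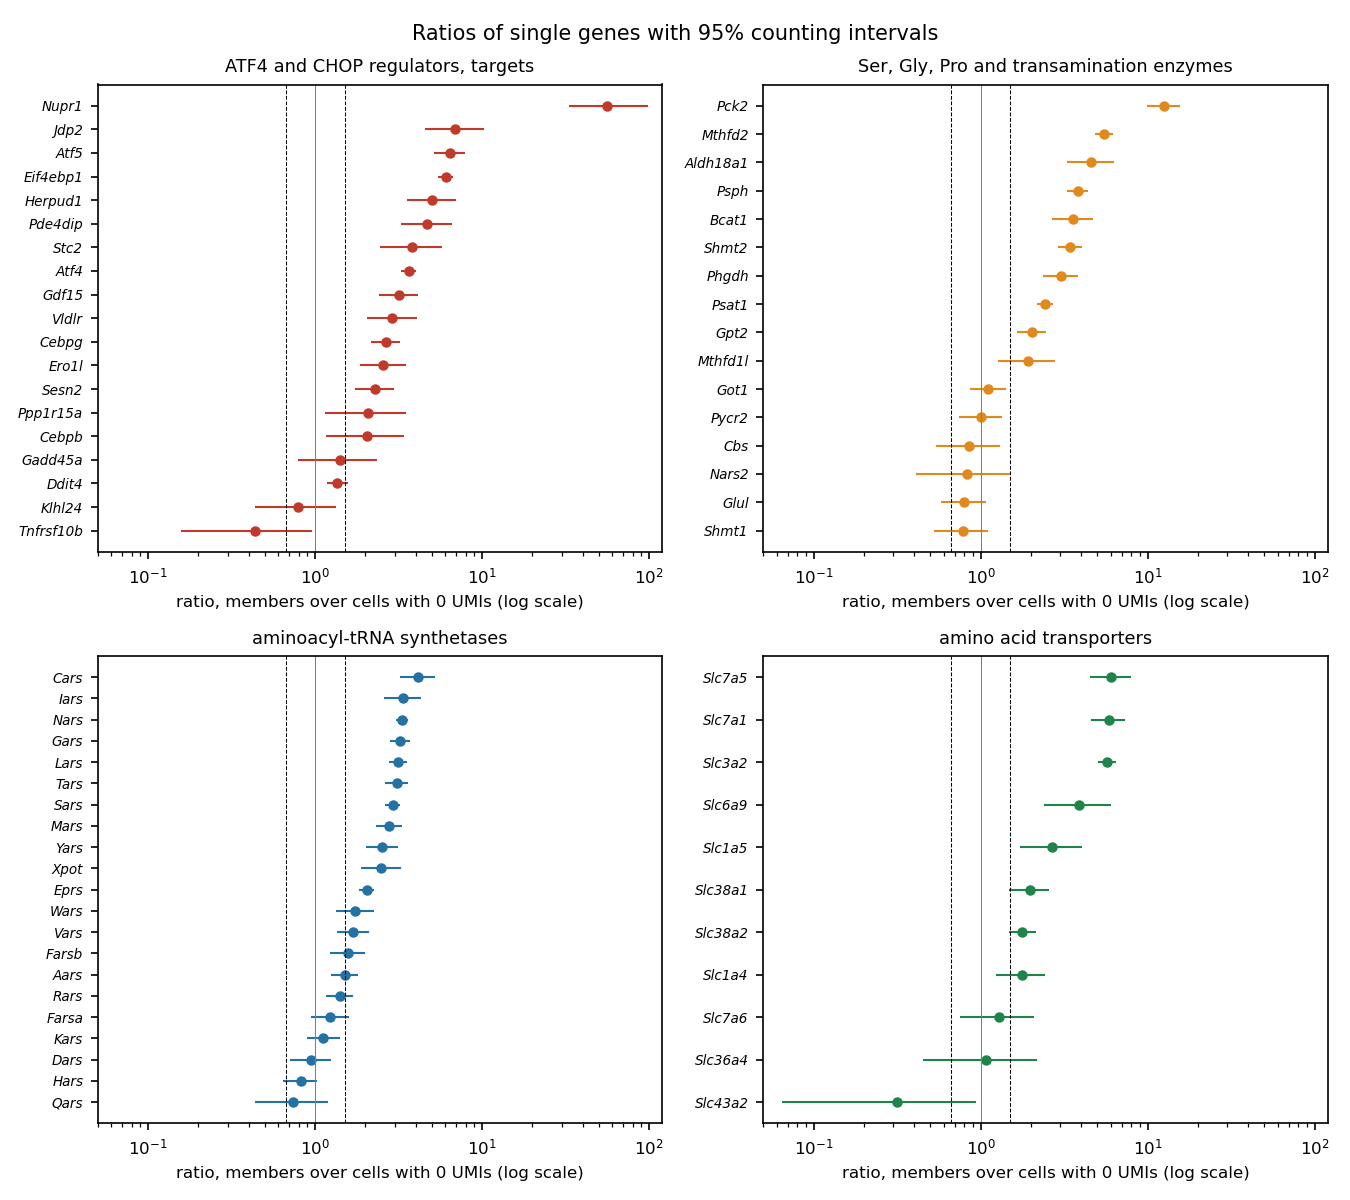
Ratio of the level in members over that in cells with 0 UMIs (horizontal, log scale) for tested genes of 4 lists, with 95% counting intervals as bars, a grey line at 1 and dashed lines at 1.5 and its inverse. In each list a set of genes lies well above 1.5 (13, 9, 11 and 5 genes) while others, such as Shmt1, Hars and Ddit4, stay near 1.

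The difference was spread over most members rather than carried by a few. At 1500 UMIs per cell, a member held 3 to 43 UMIs of the 80 genes in the 4 lists, with a median of 19, and a cell with 0 UMIs held 0 to 31, with a median of 7. The groups overlapped, but 120 members (80.0%, exact binomial interval 72.7 to 86.1) stood over the 95th percentile of the cells with 0 UMIs. Of the members, 8 (5.33%, 2.33 to 10.2) lay at or under the median of those cells. In the other direction, 15 cells with 0 UMIs (0.708%, 0.397 to 1.17) reached the median of the members. The median member had UMIs of 14 different genes of the lists and the median cell with 0 UMIs of 6.

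No list alone separated the cells as far. For the ATF4 and CHOP list the median was 4 UMIs in members and 1 in cells with 0 UMIs, and 34.0% of members stood over the 95th percentile of the cells with 0 UMIs. For the synthetases the median was 8 UMIs in members and 3 in cells with 0 UMIs, and 55.3% of members stood over it. At this depth Eif4ebp1 was found in 64.0% of members and 17.0% of cells with 0 UMIs. Pck2 was found in 32.7% of members and 2.60% of cells with 0 UMIs, and Atf4 in 56.7% of members and 25.6% of cells with 0 UMIs. The sum of the 4 lists was chosen after the data were seen.

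**Figure D3:**
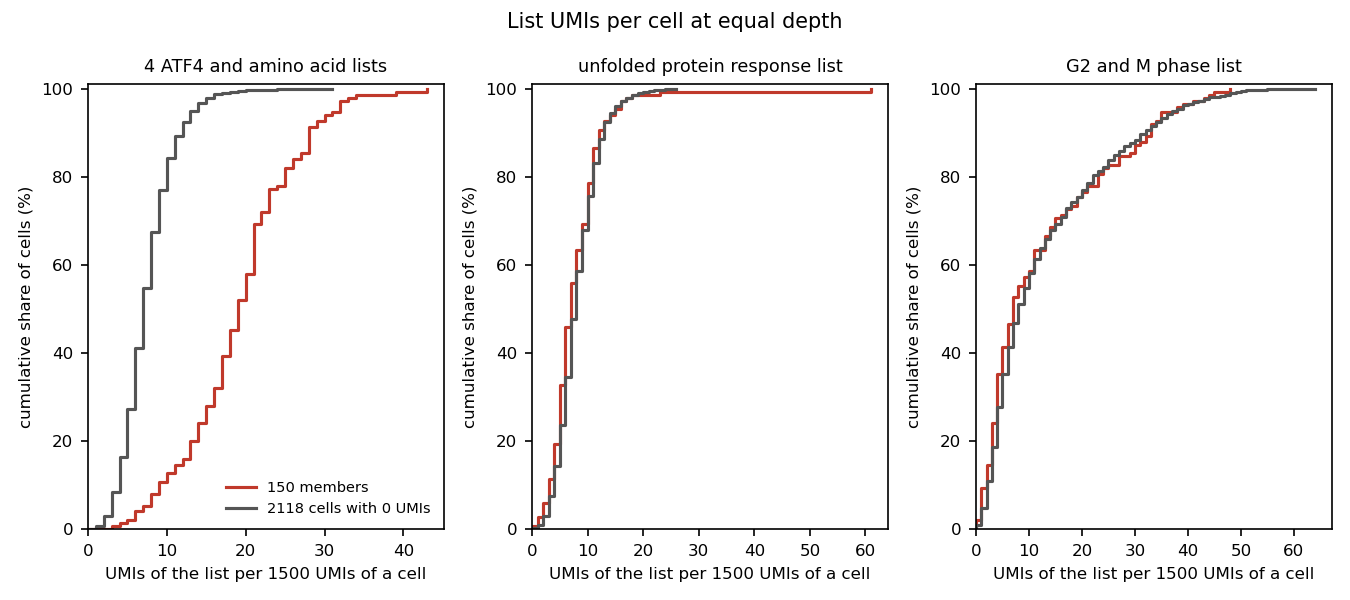
Cumulative share of cells (vertical, %) against UMIs of a list per 1500 UMIs of a cell (horizontal), for 150 members (red) and 2118 cells with 0 UMIs (grey). The curves lie apart for the 4 ATF4 and amino acid lists (medians of 19 UMIs in members and 7 in cells with 0 UMIs). They lie close together for the unfolded protein response list and the G2 and M phase list (medians of 7 in members and 8 in cells with 0 UMIs in each).

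The chaperone arm of the unfolded protein response did not differ in the same way. This arm, run by ATF6 and XBP1, raises folding enzymes of the endoplasmic reticulum, and PERK, which joins it to eIF2, is one of several routes to ATF4. None of 23 tested genes of the list lay above or below the threshold, against 1.17% of all tested genes. The median ratio was 0.982, and the sum was 5204 CPM in members and 5411 CPM in cells with 0 UMIs (0.962, 0.929 to 0.996). Hspa5, the chaperone BiP, was at 635 CPM in members and 613 CPM in the other cells, a ratio of 1.04 (0.936 to 1.14). Hsp90b1 stood at 0.993 (0.914 to 1.08) and Xbp1 at 0.940 (0.574 to 1.46). Dnajb9, a target of XBP1, was at 0.589 (0.213 to 1.31). Herpud1, which serves degradation at the endoplasmic reticulum and which ATF4 also induces, was the exception at 5.01 (3.55 to 6.97), and Ero1l, an oxidase that CHOP induces, was at 2.57 (1.86 to 3.49); both were kept in the ATF4 and CHOP list.

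A single member differed from the other members in this arm. At 1500 UMIs it held 61 UMIs of the unfolded protein list, against 23 and 18 in the next members. Among its 5978 UMIs were 55 of Hsp90b1, 48 of Hspa5, 22 of Manf, 10 of Pdia4 and 11 of Ero1l, while Nupr1 had 0 UMIs and Atf4 had 8. It supplied 22.4% of the Ero1l UMIs of all members, and the Ero1l ratio without it was 2.01. The summed ratio of the unfolded protein list without it was 0.910 (0.878 to 0.943). This cell was singled out after its values were seen.

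Transcripts of the kinases that start the response did not lie past the threshold. The list of eIF2 kinases, eIF2 and eIF2B subunits and phosphatases had 17 tested genes, of which 1 was above the threshold and none below. Over all tested genes 0.731% lay above it and 0.441% below. The summed ratio of the list was 1.36 (1.29 to 1.43). Eif2ak1 (HRI) had a ratio of 1.36 (0.940 to 1.92), Eif2ak4 (GCN2) 1.35 (0.772 to 2.23), Eif2ak2 (PKR) 1.01 (0.601 to 1.61) and Eif2ak3 (PERK) 0.875 (0.314 to 1.97). These intervals include 1 and do not show equal levels, and transcript levels do not report kinase activity. The gene above the threshold was Eif2s2, the beta subunit of eIF2, at 1006 CPM in members and 520 CPM in cells with 0 UMIs (1.93, 1.78 to 2.10).

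Among mitochondrial chaperones and proteases, 1 of 12 tested genes was above the threshold, where 0.731% of all tested genes lay. The median ratio was 1.11, and the summed ratio was 1.29 (1.24 to 1.35). The gene above the threshold was Hspa9, the mitochondrial HSP70, at 882 CPM in members and 417 CPM in cells with 0 UMIs (2.11, 1.93 to 2.31). Its partners in protein folding were nearer 1, with Hspd1 at 1.18 (1.08 to 1.28) and Hspe1 at 1.20 (1.09 to 1.31), and the protease Lonp1 was at 1.38 (1.06 to 1.79). Oma1, the protease that relays mitochondrial stress to HRI, had a ratio of 0.827 (0.390 to 1.56).

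Other stress programmes showed few or no genes past the threshold, where 1.17% of all tested genes lay in either direction. None in a list of this size is near that share. Of 12 heat shock genes none was past it in either direction (median 0.916), and of 19 autophagy and lysosome genes none was (0.963). The 14 immediate early genes, which respond quickly to handling of cells, had none past it and a median of 0.842, with Fos at 0.777 (0.447 to 1.26) and Egr1 at 0.628 (0.508 to 0.768). The 20 hypoxia and glycolysis genes had none past it (0.920), although Vegfa was at 1.85 (1.43 to 2.36). Among 16 antioxidant genes of NRF2, Hmox1 (heme oxygenase) alone was above it, at 58.2 CPM in members and 21.3 CPM in cells with 0 UMIs (2.73, 1.88 to 3.87). At equal depth Hmox1 was found in 4.67% of members (1.90 to 9.38) and 3.64% of cells with 0 UMIs (2.88 to 4.52), so no difference was detectable in the share of cells at that depth.

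No gene of the lists of p53 targets and of cell death genes lay above the threshold, where 0.731% of all tested genes lay. None in lists of this size is near that share. CHOP is known for promoting cell death, and p53 halts division after damage. Of 19 tested genes of the p53 list none was past the threshold and the median ratio was 0.912. Sesn2 and Gdf15, which p53 also induces, were kept in the ATF4 and CHOP list and were above the threshold, as given there. Cdkn1a, which encodes the CDK inhibitor p21, stood at 807 CPM in members and 956 CPM in cells with 0 UMIs, a ratio of 0.843 (0.771 to 0.921). Bbc3 (PUMA), which CHOP can also induce, stood at 1.06 (0.704 to 1.55), and Bcl2l11 (BIM) at 1.05 (0.443 to 2.14). Of 13 BCL2 family and caspase genes none was past the threshold (median 0.974).

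Summed cell cycle transcripts were near the level of the other cells in G2 and M phase and lower in S phase. The 52 genes of G2 and M phase had none past the threshold, against 1.17% of all tested genes, and a median of 0.984. Their sum was 9187 CPM in members and 9464 CPM in cells with 0 UMIs (0.971, 0.945 to 0.996). That ratio lay between 0.784 and 1.03 when members or settings were changed. The median cell stood at 4272 CPM in members and 5403 CPM in cells with 0 UMIs. Of 43 S phase genes, 7 had a ratio above 1, against 44.4% of all tested genes. The sum was 3517 CPM in members and 4271 CPM in cells with 0 UMIs (0.824, 0.789 to 0.859). Of these genes, 1 was below the threshold, where 0.441% of all tested genes lay. The gene below it was Ccne1, cyclin E1, which drives entry into S phase, at 0.358 (0.171 to 0.666). The D cyclins Ccnd1 and Ccnd2, which carry growth signals, stood at 0.775 (0.732 to 0.820) and 0.774 (0.720 to 0.831).

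Transcripts of the translation machinery were higher by small amounts in most genes measured. Of 81 ribosomal protein genes, 75 had a ratio above 1 against 44.4% of all tested genes, with a median of 1.18, and they took 9.61% of UMIs in members and 8.16% in cells with 0 UMIs. Of them Rpl26 alone was above the threshold, at 2.27 (2.0 to 2.56), and it has near-identical copies in the genome that can share reads. Of 22 initiation and elongation factors, 19 had a ratio above 1, and Eif1, which sets the accuracy of start codon choice, was above the threshold at 1.75 (1.61 to 1.90). Gas5, a noncoding RNA that hosts small nucleolar RNAs and is degraded while translation runs, was at 1979 CPM in members and 1181 CPM in cells with 0 UMIs (1.68, 1.58 to 1.78), and 7 of the 10 host genes had a ratio above 1.

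Mitochondrial RNA moved with the grouping. Mitochondrial genes took 3.43% of UMIs in members and 3.01% in cells with 0 UMIs. A single ribosomal RNA gene, mt-Rnr1, stood at 2923 CPM in members and 1063 CPM in cells with 0 UMIs (2.75, 2.62 to 2.89), and without it the shares were 3.13% in members and 2.91% in the other cells. The messenger mt-Cytb was lower, at 0.793 (0.765 to 0.821). Of 28 nuclear genes of oxidative phosphorylation none was past the threshold, against 1.17% of all tested genes, and the median was 0.908. The nuclear RNA Malat1 took 0.299% of UMIs in members and 0.306% in the other cells. The part of mitochondrial RNA content in the results above was not tested.

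Of the 20 genes above the threshold that no list held, Phf10, a subunit of the PBAF chromatin complex, had the highest lower bound, at 291 CPM in members and 87.1 CPM in cells with 0 UMIs (3.34, 2.84 to 3.91). Phf10 overlaps a gene on the opposite strand by 14562 bases, so its value is uncertain. Others, named after their values were seen, were G0s2, an inhibitor of triglyceride breakdown (3.27, 2.50 to 4.24), the glucocorticoid-induced Tsc22d3 (2.90, 1.83 to 4.44), Grb10, an adaptor that dampens insulin signalling (2.64, 2.06 to 3.35), the ubiquitin ligase gene Siah2 (2.39, 1.57 to 3.53), the transcriptional coregulator gene Ifrd1 (2.32, 1.96 to 2.72) and Serpinh1, a collagen chaperone (1.82, 1.64 to 2.02). Of those 20, Arl14ep, Eps15 and Arhgef2 held the TGATGNAA element in a promoter window.

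The 38 genes below the threshold, 0.441% of all tested genes, included no gene of the 4 lists, which is near that share. Cox6b2, a subunit form of cytochrome c oxidase known mainly from testis, was at 39.8 CPM in members and 157 CPM in cells with 0 UMIs, a ratio of 0.253 (0.165 to 0.373). Aldh1l1, a cytosolic folate enzyme and an astrocyte marker, was at 35.2 CPM in members and 125 CPM in the other cells (0.281, 0.178 to 0.424). At equal depth it was found in 5.33% of members (2.33 to 10.2) and 15.4% of cells with 0 UMIs (13.9 to 17.0). Ttyh1, a membrane protein of neural stem cells, had a ratio of 0.303 (0.202 to 0.438), and Hbegf, a ligand of the EGF receptor, was at 85.7 CPM in members and 239 CPM in the other cells (0.359, 0.270 to 0.467). The Notch ligand gene Dll3 had 5 UMIs in members and a ratio of 0.180 (0.0581 to 0.424).

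The set of lower genes rested on fewer molecules and was less stable than the set of higher genes. Of the 38, 7 had 1 to 3 UMIs in members and 4 had 0. Those 4 were Timp1, Ctso, Rac3 and Mndal, at least 2.92-fold, 2.76-fold, 2.63-fold and 2.38-fold lower in members when the group is given a floor of 3 UMIs. The upper bounds of their ratios, from intervals that also cover counting error in the cells with 0 UMIs, were 0.427, 0.452, 0.476 and 0.526 in that order. Ifi203 had 1 UMI in members and a ratio of 0.0751 (0.00189 to 0.423), and Zfp667 likewise (0.0938, 0.00236 to 0.530). Ifi203 and Mndal overlap by 22085 bases on the same strand, and Timp1 lies within Syn1 on the opposite strand, so these counts are uncertain. With cells thinned to equal depth 13 genes were below the threshold, 6 of them among the 38. With members chosen without Asns, 25 were below it, 9 of them among the 38. The same changes left 49 and 54 of the 63 higher genes above it.

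**Figure D4:**
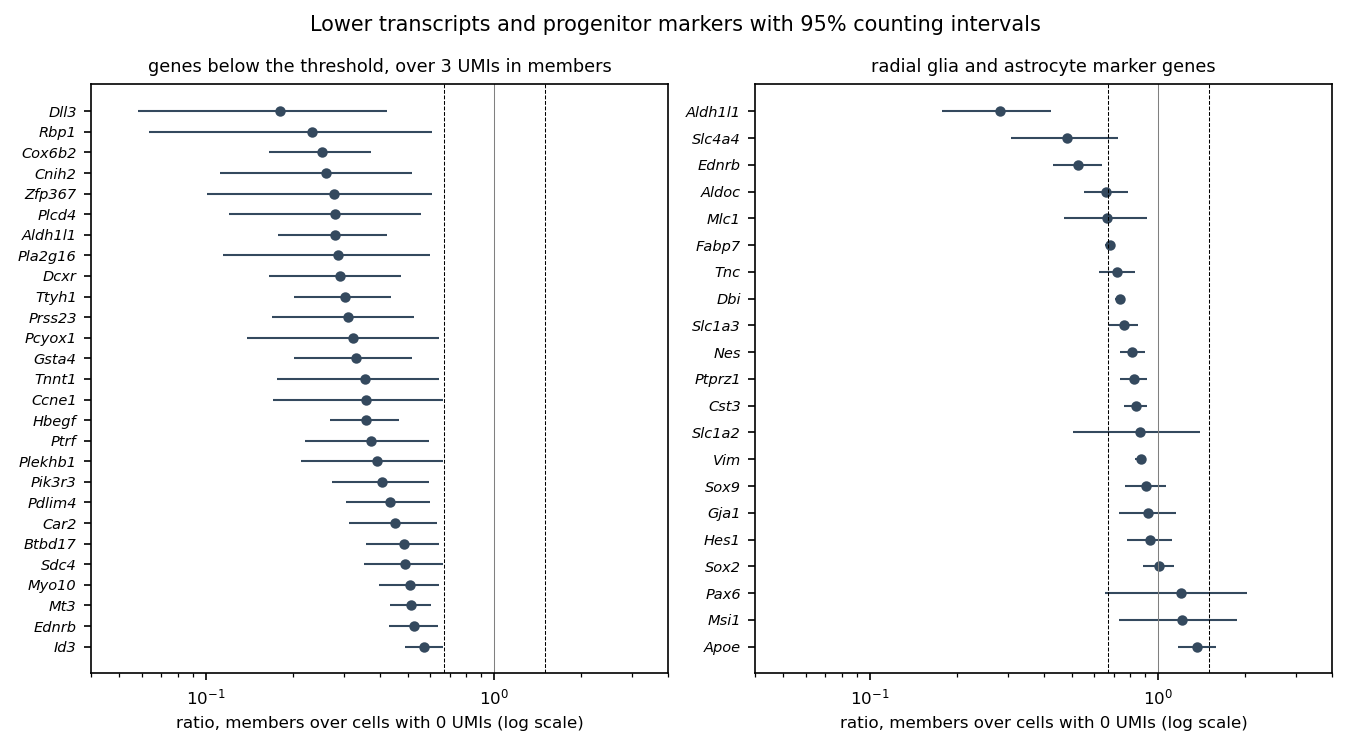
Ratio of the level in members over that in cells with 0 UMIs (horizontal, log scale) with 95% counting intervals, for genes below the threshold with over 3 UMIs in members (left) and for radial glia and astrocyte markers (right). Dashed lines stand at 1.5 and its inverse. Most progenitor markers lie between the dashed lines and under 1, with Sox2 at 1.0 and Aldh1l1 at 0.281.

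The members held markers of neural progenitors, several of them at a lower level than in cells with 0 UMIs. All 14 radial glia and neural stem cell markers were in the table and summed to 15052 CPM in members and 19993 CPM in cells with 0 UMIs (0.753, 0.738 to 0.768). Fabp7, a fatty acid carrier typical of radial glia, was at 4958 CPM in members and 7321 CPM in the other cells (0.677, 0.654 to 0.701). Vim had a ratio of 0.867 (0.829 to 0.907) and Nes 0.812 (0.734 to 0.897). The transcription factor genes Sox2 and Sox9 stood at 1.0 (0.886 to 1.13) and 0.904 (0.764 to 1.06). Ednrb, an endothelin receptor of radial glia, was the 1 marker below the threshold, at 0.526 (0.432 to 0.635).

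Neighbouring lineages differed in part. Of 8 tested astrocyte markers 1 had a ratio above 1, the lipid carrier gene Apoe at 1.37 (1.17 to 1.59). The glycolytic enzyme gene Aldoc stood at 0.660 (0.551 to 0.784). At equal depth a member held 0 to 81 UMIs of the astrocyte list, with a median of 2. A cell with 0 UMIs held 0 to 67, also with a median of 2. The part of the highest member in the Apoe ratio was not tested. For this list the median cell stood at 1014 CPM in members and 1536 CPM in cells with 0 UMIs. Olig1 and Olig2, which mark ventral progenitors and cells on the way to oligodendrocytes, stood at 0.755 (0.697 to 0.815) and 0.888 (0.798 to 0.985). Of 13 Notch pathway genes 2 had a ratio above 1 and the median was 0.710, with Hes5, an effector in progenitors, at 0.541 (0.336 to 0.826). The immature neuron list summed to 1341 CPM in members and 1075 CPM in cells with 0 UMIs (1.25, 1.16 to 1.34), and 4 of its 6 tested genes had a ratio above 1, none past the threshold. Gap43 stood at 1.35 (1.22 to 1.48) and Stmn3 at 1.76 (1.41 to 2.17), whereas Elavl3 stood at 0.514 (0.219 to 1.03). The part of this shift in the stress lists was not tested.

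Summed markers of microglia, vessels, meninges, ependyma and choroid plexus were not above their level in cells with 0 UMIs beyond counting error. Microglia markers summed to 3.06 CPM in members and 2.81 CPM in cells with 0 UMIs, endothelial markers to 9.18 CPM in members and 11.5 CPM in the other cells, and fibroblast and meningeal markers to 3.06 CPM in members and 4.99 CPM in the other cells. The lists for mural cells, ependyma and choroid plexus summed to 35.2, 12.2 and 27.6 CPM in members, against 48.0, 22.6 and 43.1 CPM in cells with 0 UMIs. No doublets were removed. No member exceeded 20000 UMIs, against 3 of the cells with 0 UMIs.

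Lists of the response were already higher in non-members with a larger share of the 4 transcripts than in cells with 0 UMIs. Cells were laid out in 5 strata: 0 UMIs, the lower (521 cells) and upper (520 cells) part of the other non-members, members ranked 76 to 150 and members ranked 1 to 75. The ATF4 and CHOP list stood at 959, 1059, 1745, 2713 and 3574 CPM in that order. Amino acid enzymes stood at 1186, 1369, 1911, 2883 and 3294 CPM, and transporters at 423, 455, 725, 1325 and 1502 CPM. Each of these 3 lists was higher in every stratum than in the one before. For enzymes and transporters the step between neighbouring strata was largest at the edge of the members, as with transporters at 1325 CPM in members ranked 76 to 150 against 725 CPM in the upper non-members.

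Single genes differed in where they increased. Nupr1 stood at 1.98, 6.08, 34.2, 87.8 and 137 CPM over the strata, and Cth at 3.95, 6.08, 19.9, 45.3 and 117 CPM, so both were highest in the top 75 members. Atf4 stood at 200.0, 248, 432, 680 and 779 CPM. Psat1 stood at 245, 286, 364, 623 and 570 CPM and mt-Rnr1 at 1063, 1245, 1944, 2940 and 2904 CPM, with no further increase within the members. Cox6b2 ran the other way at 157, 147, 74.4, 36.8 and 43.3 CPM. The unfolded protein list held its level at 5411, 5579, 5325, 5101 and 5325 CPM. The strata also differ in depth, since the lower non-members had a median of 6616 UMIs, the upper 3662 and the members 3850 and 3459, and its part in the order was not tested.

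**Figure D5:**
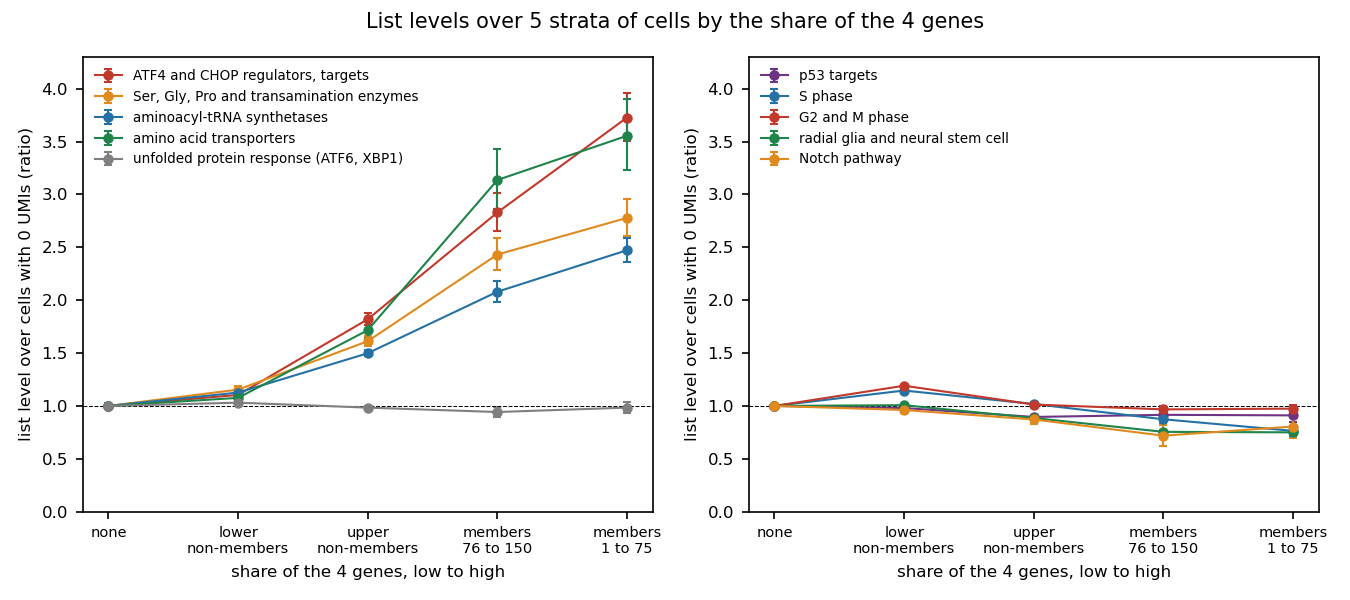
Level of each list divided by its level in cells with 0 UMIs (vertical, ratio) over 5 strata of cells ordered by their share of the 4 transcripts (horizontal), with 95% Poisson intervals of the stratum as bars. The 4 ATF4 and amino acid lists (left) are highest in members (3574 CPM for the ATF4 and CHOP list in the top 75, against 959 CPM in cells with 0 UMIs), while the unfolded protein list (5325 CPM against 5411 CPM) stays near 1. Of the lists at the right, G2 and M phase had a ratio of 0.971 over all members and p53 targets 0.914. S phase (0.824), Notch (0.759) and radial glia (0.753) were lower.

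Members also varied by which of the 4 transcripts they held, a split made after the data were seen and one that follows depth. The 42 members with Asns alone had a median of 2947.5 UMIs, and the 89 members with Chac1 or Trib3 had a median of 4160. The ATF4 and CHOP list stood at 3441 CPM in members with Chac1 or Trib3, 2028 CPM in members with Asns alone and 959 CPM in cells with 0 UMIs. Synthetases stood at 6013 CPM in members with Chac1 or Trib3 and 4563 CPM in those with Asns alone. In cells with 0 UMIs synthetases stood at 2507 CPM, so members with Asns alone had both of these lists above those cells as well.

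Several genes differed more between these members. Cth stood at 95.8 CPM in members with Chac1 or Trib3 and 13.2 CPM in those with Asns alone, and Slc7a3 at 82.2 CPM with Chac1 or Trib3 and 13.2 CPM with Asns alone. Hmox1 stood at 70.7 CPM with Chac1 or Trib3 and 13.2 CPM with Asns alone, and Nupr1 at 130.1 CPM with Chac1 or Trib3 and 59.3 CPM with Asns alone. In the members with Asns alone, 13.2 CPM is 2 UMIs, so those levels are imprecise. Atf4 differed less, at 799 CPM with Chac1 or Trib3 and 546 CPM with Asns alone, and Lars was at 484 CPM with Chac1 or Trib3 and 474 CPM with Asns alone. The G2 and M phase list stood at 8396 CPM in members with Chac1 or Trib3 and 11798 CPM in those with Asns alone. The 64 members with Ddit3 had 3687 CPM of the ATF4 and CHOP list, against 2611 CPM in the 86 members without it. The part of depth in these differences was not tested.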

How the data were processed

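Raw UMI counts per gene and barcode (19144 genes, 4000 barcodes) were used as the authors deposited them, with no normalization. The build was mm10, per the submitters' processing notes, and the planned depth was 60000 reads per cell, per the labels' protocols. Neither aligner, counting program, strand use nor barcode selection is given in the sources used here. The members and gene lists were chosen with earlier results of these data known.

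Barcodes with at least 500 genes, at most 10% mitochondrial UMIs and at least 1500 UMIs were kept, and ties in the share went to the deeper cell. No doublet caller was run. Of the barcodes, 8 members and 154 cells with 0 UMIs held an unread base. Counts were summed over cells, since cells are not replicates. Ratios have exact conditional binomial intervals and levels exact Poisson intervals, each covering counting error alone at the 95% level. Shares of cells have exact Clopper-Pearson intervals at the 95% level. These treat each cell as an independent draw and do not cover differences between cultures. Cells were thinned at random (seed 1) to 1500 UMIs, which left out 0 cells. Named genes were list genes, the 20 tested genes with the highest lower bound and the 15 with the lowest upper bound, with exceptions stated. The values of 2 list genes are not reported here, though they count in their lists. The ratio and thinning steps were tested on simulated data. Symbols were matched to RefSeq promoters directly or through a single RefSeq synonym (80.0% of tested genes). Gene spans are those of GENCODE M21. The software was matplotlib 3.10.9, pandas 2.3.3, scipy 1.17.1, numpy 2.4.6 and Python 3.11.15. Alternatives changed the number of members, the filters, the comparison cells, the rule genes, the threshold, the depth and the scaling.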

Additional observations from a re-analysis of the deposited data

How the results depend on the processing

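No paired analysis was possible because the labels give 1 group and no barcode is tied to a sample. The summed ratio of the ATF4 and CHOP list, 3.24, was 3.73 with 75 members, 2.81 with 300 members, 2.81 against all cells that are not members, 3.09 with cells thinned to 1500 UMIs, and 3.60 with members that held at least 2 of the 4 transcripts. The count of genes above the threshold, 63, was 120 with no CPM minimum and 38 with a threshold of 2, and 47 to 76 under the other settings run. The count below it, 38, was 23 with 300 members, 13 with thinned cells, 25 with members chosen without Asns and 10 with a threshold of 2. Of the 63 higher genes, 60 were above the threshold with 75 members and 56 with 300, whereas of the 38 lower genes 16 and 12 were below it. Of 1139 recomputed values of lists and named genes, 143 lay outside the interval of the main value, and the cause was not tested. Of the 643 whose result was past the threshold, 0 lay on the other side of 1. Of the other 496, 23 did, over 9 lists. The list ratio of G2 and M phase, 0.971, lay between 0.784 and 1.03 over the settings. It was 1.03 without Ddit3 in the rule and 1.0 over the median ratio. Hypoxia, 0.924, was 1.03 without Asns, and fibroblast and meningeal markers, 0.614, were 2.90 without Asns. The others were BCL2 family and caspases, autophagy, microglia, endothelial, mural and choroid plexus. With 1 table and no replicates, agreement between settings says nothing about other cultures, and genes with few UMIs in 150 cells are limited by depth.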
